A study of Homo sapiens with 4 samples.

Results

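The genes of 4 CDC-like kinases, CLK1, CLK2, CLK3 and CLK4, and of the pair of enzymes that add and remove O-linked N-acetylglucosamine (O-GlcNAc), OGT and OGA, were examined in a RIP-seq experiment on the m6A reader YTHDC1. In RIP-seq, an antibody pulls down a protein with its attached RNA, which is sequenced next to RNA of the lysate it was taken from. The 6 genes were chosen because they are known for nuclear detained introns, and every transcript listed under their symbols was kept, which gave 49 of 75165 listed transcripts and 6 of 20298 genes. All 4 libraries came from MDA-MB-231, a triple negative breast cancer cell line of mesenchymal character, transduced with a lentivirus for 3x flag-YTHDC1 at a multiplicity of infection of 4 and selected with puromycin at 2 μg/ml for 4 days. The input cells thus carried the overexpressed protein too. After 3 rounds of UV crosslinking, the 2 Flag-YTHDC1 IP libraries were made with 5 μg of antibody against Flag from nuclear lysate holding 500 μg of protein. The same kind of lysate, at 50 μg of protein, gave the 2 input libraries, whose RNA the labels name total RNA.

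Each transcript was analysed by its mean normalized count, that is, the authors' average over the IP and input libraries together of read counts scaled to a common library size. One such value stands for all 4 libraries. Levels in the IP and in the input are therefore not given separately, the spread between replicates is unknown, and no difference between groups was tested. The depth of each library is unknown as well. The values describe which RNA forms of these genes made up the pool of nuclear input and YTHDC1-recovered RNA, and say nothing about enrichment by YTHDC1. Because longer transcripts yield more reads and transcript lengths were not used, totals of different genes were not compared as expression levels. Where a total or a transcript is ranked among others, the rank is one of read counts. Shares within a gene are shares of read counts and not of molecules.

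A detained intron is an intron left unspliced in an otherwise processed, polyadenylated RNA that stays in the nucleus, where the RNA is later spliced and exported or degraded. CLK kinases phosphorylate serine/arginine-rich (SR) splicing factors, and the splicing of their own transcripts responds to CLK activity. OGT attaches O-GlcNAc to nuclear and cytoplasmic proteins and OGA takes it off, and splicing of introns in both genes responds to the cell's O-GlcNAc level. The annotation does not mark detained introns as such. It has a retained-intron class, for transcripts of a coding gene that hold intronic sequence, beside protein-coding transcripts, transcripts predicted to undergo nonsense-mediated decay, and processed transcripts, a class without an open reading frame. The retained-intron class was used as the nearest measure, and a transcript in it need not carry the intron known to be detained. The RNA was rRNA-depleted and came from nuclear lysate, so intronic reads of RNA still being processed can count toward this class. Such RNA cannot be told apart here from RNA that keeps an intron.

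The cell line's markers were checked over all libraries. The 5 genes taken as high in MDA-MB-231 (VIM, CD44, CAV1, AXL and KRT18) had gene totals from 7624 to 80785 normalized counts. Of the 5 taken as low, ESR1 and PGR were not listed, CDH1 had a total of 10.0 and EPCAM of 78.3, whereas CLDN4, a tight junction gene, went against the list with 2266. PTPRC and LYZ, markers of blood cells, had totals of 3.81 and 7.00, and CD3E was not listed. YTHDC1, the overexpressed gene, had a total of 55488, and only 36 genes had a higher one.

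Retained-intron transcripts were listed for CLK1, CLK3, CLK4 and OGT, and for neither CLK2 nor OGA. Of all 13631 genes with a listed protein-coding transcript, 38.5% also listed a retained-intron one. Among genes with as many listed transcripts as the member, the share was 57.3% for CLK1 and CLK2, 97.4% for CLK3, 65.6% for CLK4, 73.6% for OGT and 47.6% for OGA, so listing the class was the more common case at the size of each member that had it. In those 4 members, retained-intron transcripts carried 46.4% of the summed mean normalized count of CLK1, 35.2% of CLK4, 24.6% of OGT and 9.71% of CLK3. Across the 5248 genes with at least 1 listed retained-intron and 1 listed protein-coding transcript, the median of this share was 5.62%, with quartiles of 1.91% and 15.6%. All 4 members that list the class were above the median, and 3 of them, CLK1, CLK4 and OGT, were above the upper quartile. CLK1 had a higher share than 94.4% of these genes, CLK4 than 90.6%, OGT than 84.3% and CLK3 than 64.3%. As the genes were picked for detained introns, these positions describe the genes and were given no test.

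**Figure D1:**
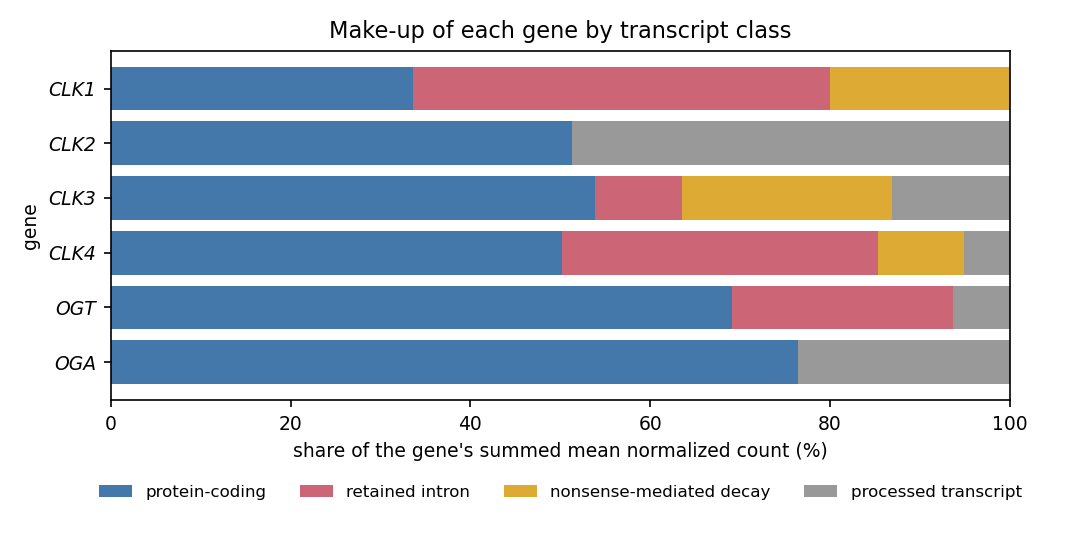
Make-up of each gene by annotated transcript class, as the share in percent (horizontal axis) of the gene's summed mean normalized count over all libraries; each bar is 1 gene (vertical axis) and sums to 100%. The retained-intron part is widest in CLK1, at 46.4%, and missing in CLK2 and OGA.

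CLK1 (ENSG00000013441.16, minus strand of chromosome 2 from 200853009 to 200864658 in GRCh38.p14) is the founding member of the family. It had 6 listed transcripts, and the most abundant was not a coding one but the retained-intron transcript CLK1-211 (ENST00000481641.1), with a mean normalized count of 104, or 35.9% of the gene. A retained-intron transcript led in 341 of the 5248 genes (6.50%). The other retained-intron transcripts of CLK1, CLK1-207 and CLK1-212, had mean normalized counts of 23.5 and 6.66. Its 2 protein-coding transcripts, CLK1-205 and CLK1-201, had 64.0 and 33.2, which together were 33.6% of the gene. CLK1-202, annotated for nonsense-mediated decay, had 57.7, or 20.0%. Retained-intron transcripts of CLK1 thus summed to 1.38 times the protein-coding ones, and only 7.37% of the 5248 genes had a lower protein-coding share. CLK1-211 stood above 83.7% of all 11560 listed retained-intron transcripts in mean normalized count, although the gene total of 289 rests on few counts.

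CLK4 (ENSG00000113240.13, minus strand of chromosome 5, 178602664 to 178627050) is another kinase of this family. It had 7 listed transcripts, and few counts lay behind it, with a gene total of 196. CLK1 and CLK4 are close paralogs, and how reads that fit both genes were divided between them was not tested. Its leading transcript was protein-coding, CLK4-214 (ENST00000611575.4), at 87.4 and 44.6% of the gene. The retained-intron transcript CLK4-205 (ENST00000520199.5) came next, at 56.2 and 28.6%, and CLK4-202 of the same class had 12.8. The second protein-coding transcript, CLK4-201, had no more than 10.9. In CLK4, retained-intron transcripts summed to 0.702 times the protein-coding ones, so coding forms led here where they did not in CLK1. Transcripts annotated for nonsense-mediated decay, CLK4-210 at 11.8 and CLK4-209 at 6.92, made up 9.52% of the gene, and the processed transcript CLK4-212, at 10.1, made up 5.14%.

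CLK3 (ENSG00000179335.18, plus strand of chromosome 15, 74608372 to 74630201) was the member with most forms, 17 listed transcripts and a gene total of 1689. Protein-coding transcripts carried 53.8% of it over 8 forms, led by CLK3-201 (ENST00000345005.8) at 443 and CLK3-217 at 229. The second most abundant transcript was CLK3-204 (ENST00000483723.5), annotated for nonsense-mediated decay, at 362 and 21.4% of the gene. With CLK3-225, at 33.6, the decay class reached 23.4% in CLK3, its highest share among the members. CLK3 also had the most retained-intron transcripts by number, 5, from 5.24 (CLK3-224) to 98.8 (CLK3-222). Their sum, 164, was the highest among the CLK genes, beside 134 in CLK1 and 69.0 in CLK4. Against the larger gene total of CLK3 this was a share of 9.71%. In this family the number of listed retained-intron forms therefore ran with their summed counts, but not with their share of the gene.

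CLK2 (ENSG00000176444.19, minus strand of chromosome 1, 155262868 to 155273504) had 6 listed transcripts and a gene total of 579, with none annotated as a retained intron or for nonsense-mediated decay. The pool of genes with a protein-coding transcript and the same number of listed transcripts held 1183 genes, of which 678 listed at least 1 retained-intron form. CLK2-202 (ENST00000361168.9), protein-coding, had a mean normalized count of 235, and CLK2-203, of the same class, had 61.9. The processed transcript CLK2-205 (ENST00000476983.5) nearly matched the leading coding form, at 199 and 34.4% of the gene. With CLK2-207 at 33.9, CLK2-204 at 33.4 and CLK2-206 at 15.5, processed transcripts made up 48.7% of CLK2 against 51.3% for protein-coding ones.

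**Figure D2:**
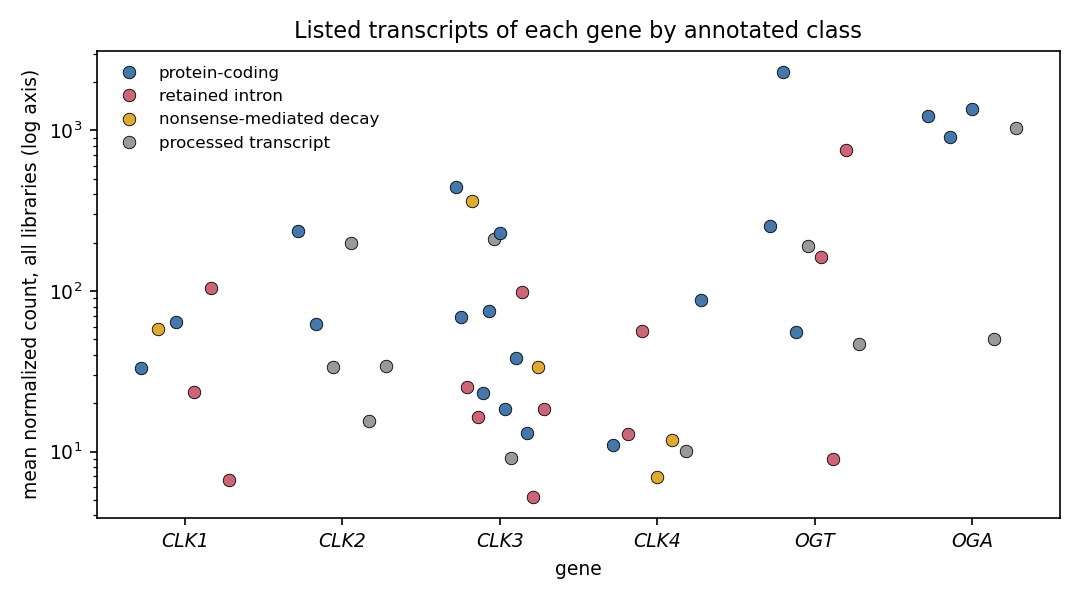
Mean normalized count over all libraries (vertical axis, log scale) of each of the 49 listed transcripts, by gene (horizontal axis) and coloured by annotated class; each point is 1 transcript, and there are no error bars because 1 value stands for all libraries. In CLK1 a retained-intron transcript is the highest point, at 104, and in OGT such a transcript is second, at 760.

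OGT (ENSG00000147162.14, plus strand of chromosome X, 71533104 to 71575892) had 8 listed transcripts and a gene total of 3790. The protein-coding transcript OGT-202 (ENST00000373719.8) led with 2310, or 60.9% of the gene, and the other coding forms, OGT-201 and OGT-203, had 255 and 55.7. The retained-intron transcript OGT-210 (ENST00000488174.5) was second, at 760 and 20.0%. Among all 11560 listed retained-intron transcripts, 224 had a higher mean normalized count than OGT-210. The remaining retained-intron transcripts were OGT-208 at 163 and OGT-209 at 9.04. For each count on protein-coding OGT transcripts there were 0.355 on retained-intron ones. The processed transcripts OGT-205 and OGT-211 had 191 and 46.8, and no OGT transcript annotated for nonsense-mediated decay was listed.

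OGA (ENSG00000198408.14, minus strand of chromosome 10, 101784450 to 101818444) had 5 listed transcripts, a gene total of 4589 and no listed retained-intron transcript. Of the 1417 genes with as many listed transcripts and a coding form, 674 listed one. In OGA, no single form led clearly. Its 3 protein-coding transcripts, OGA-203, OGA-201 and OGA-202, had mean normalized counts of 1366, 1235 and 905, and OGA-203 (ENST00000370094.7) carried 39.0% of their sum, where the leading coding form carried 88.1% in OGT. The processed transcript OGA-209 (ENST00000482611.5) came after the first 2 of these, at 1033 and 22.5% of the gene, and OGA-207 of the same class had 50.4. The 2 enzymes of O-GlcNAc cycling thus differed in the annotated class of their main transcript outside the coding forms. It was a retained intron in OGT and a processed transcript in OGA. Whether the processed forms hold intronic sequence was not examined. A retained-intron form of OGA or CLK2 below the authors' read filter would not be listed.

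Of the 49 transcripts of the 6 genes, 20 were protein-coding, 13 retained-intron, 11 processed and 5 annotated for nonsense-mediated decay. Retained-intron forms were 26.5% of the members' transcripts and 15.4% of all listed transcripts, whereas protein-coding forms were 40.8% and 52.3%. The listed transcripts include those of genes without a coding form and were not matched for the number of transcripts per gene. CLK3 alone gave 5 of the members' retained-intron forms. The 13 retained-intron transcripts had a median mean normalized count of 23.5, close to the 22.6 of that class over all genes, with a range of 5.24 to 760. Only 3 of them, OGT-210, OGT-208 and CLK1-211, reached 100 normalized counts. In each of the 4 genes 1 form carried most of the class, from 60.2% of the retained-intron counts in CLK3 to 81.6% in OGT, with 77.5% in CLK1 and 81.4% in CLK4. Processed transcripts of the members had a median of 46.8, against 26.8 over all genes. The other classes lay below theirs, with medians of 71.9 against 91.0 for protein-coding transcripts and 33.6 against 42.1 for those annotated for nonsense-mediated decay.

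**Figure D3:**
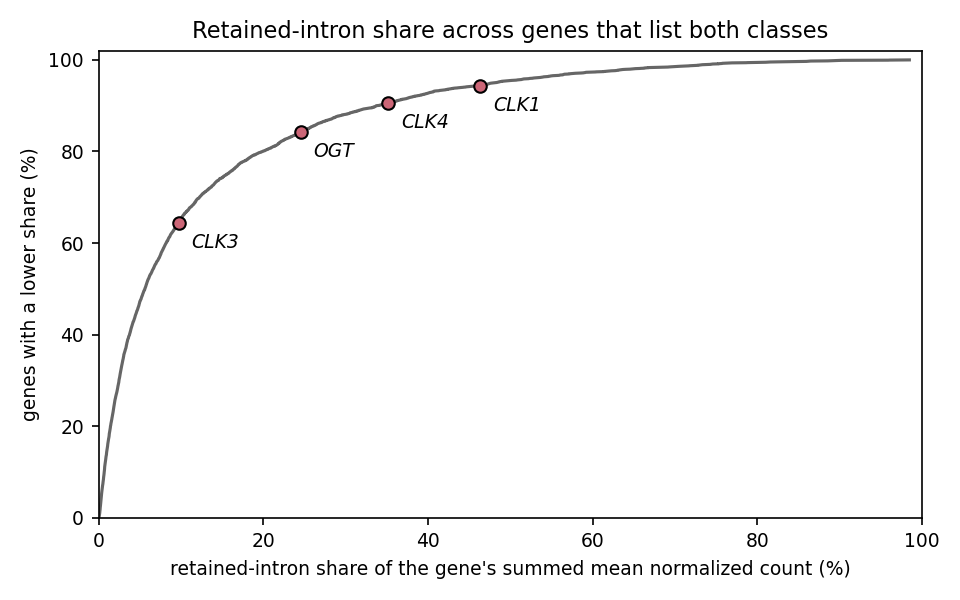
Retained-intron share of the gene's summed mean normalized count (horizontal axis, percent) against the percent of the 5248 genes listing both classes that have a lower share (vertical axis); the line is all these genes and the points are the members with such a transcript. CLK1, CLK4 and OGT lie on the flat upper part of the line, above the upper quartile of 15.6%, and CLK3 lies near the 64.3% mark.

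Genes of the same pathways gave a mixed picture. Of all genes with a coding transcript, 38.5% list a retained-intron one. This share was higher for genes with more listed transcripts, at 47.6% for 5, 57.3% for 6 and 73.6% for 8. No share matched to the sizes of the pathway genes was computed. Among 14 genes of SR proteins, the substrates of CLK kinases, 13 were listed and 9 had a retained-intron transcript, with a median share of 4.08% over those 9. Of these, 4 were above the median of all genes and 2 above the upper quartile. TRA2B, a splicing activator, had the highest share, 47.2%, and SRSF2, a core SR protein, the lowest, 0.105%. SRSF2 also had the highest gene total of the list, 5604, of which 90.4% lay on transcripts annotated for nonsense-mediated decay. SRSF12 was not listed. Among 6 genes of other kinases that act on splicing factors, all were listed and 3 had a retained-intron transcript. SRPK1, the other main kinase of SR proteins, had the highest share, 52.3%, through SRPK1-201, which alone was 48.0% of the gene. As in CLK1, the leading transcript was thus a retained-intron one. The same held for SRSF1 among the SR proteins, with a share of 40.7%. PRPF4B, a spliceosome-associated kinase, had the lowest share, 0.152%, and the highest gene total, 6082, of which 98.2% was annotated for nonsense-mediated decay. Among the 5 genes of UDP-GlcNAc synthesis, which supply the sugar donor of OGT, all were listed. Of them, 2 had a retained-intron transcript, near the 38.5% of all genes. These were GFPT2, a rate-limiting amidotransferase isoform, at 19.7%, and UAP1, the pyrophosphorylase of the last step, at 1.54%. UAP1 also had the highest gene total of the list, 1623. The median share over the 4 members with such a transcript was 29.9%. It was 4.08% over 9 SR protein genes, 1.12% over 3 other kinase genes, and 10.6% over 2 genes of UDP-GlcNAc synthesis. The members were picked for detained introns, the other medians rest on few genes, and SRPK1 and TRA2B had higher shares than any member.

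**Figure D4:**
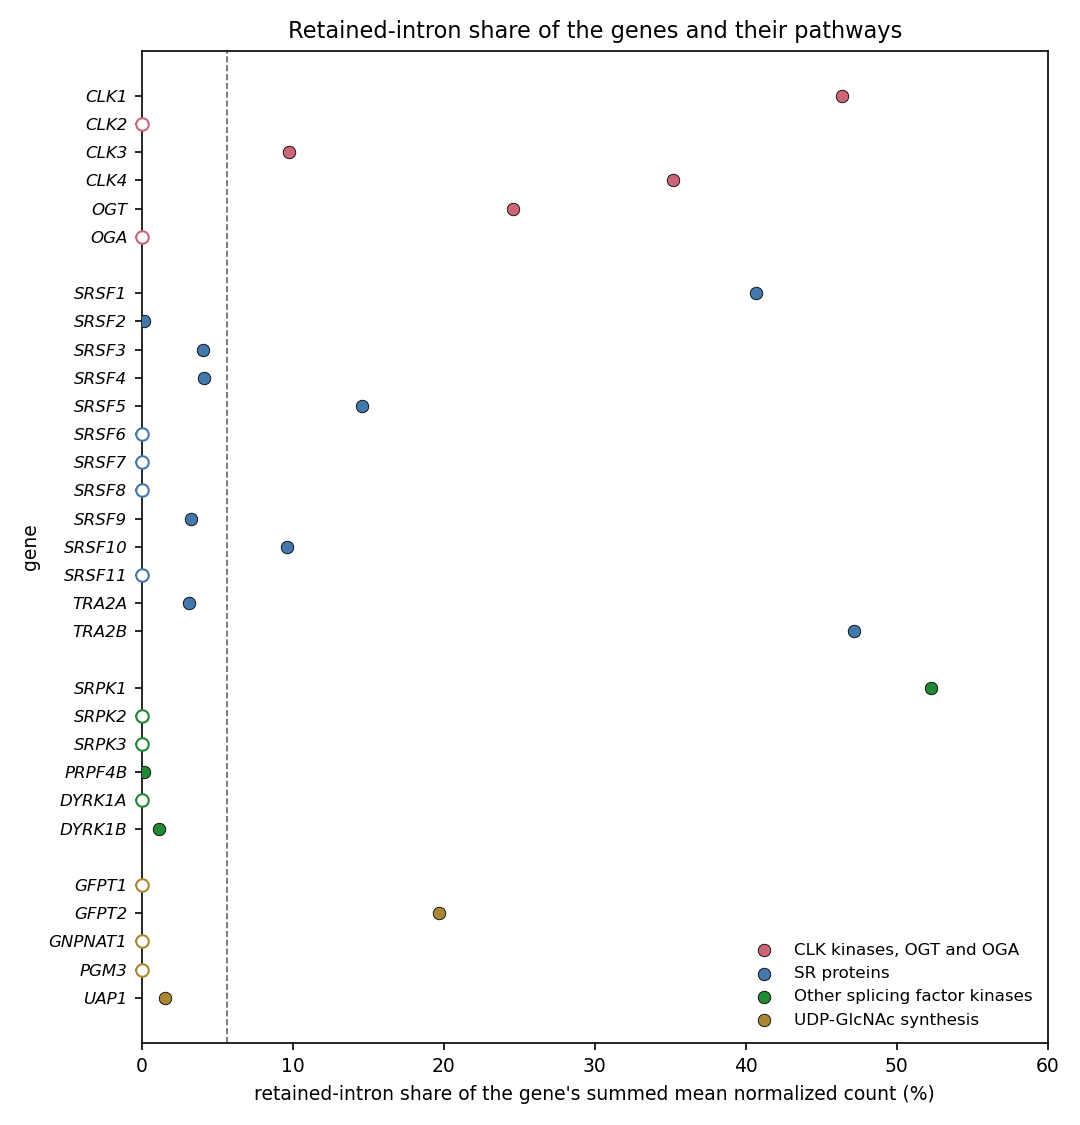
Retained-intron share of the gene's summed mean normalized count in percent (horizontal axis) for each gene (vertical axis), coloured by list; open circles at 0 are genes with no listed retained-intron transcript, and the dashed line is the median of the 5248 genes, 5.62%. SRPK1 and TRA2B, at 52.3% and 47.2%, lie beside CLK1 at 46.4%, followed by SRSF1 at 40.7%. Most other pathway genes lie left of the line or at 0.

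The genes most like each member were sought by their shares of retained-intron, protein-coding and other transcripts, among genes with a gene total within 2-fold, and likeness was the sum of the absolute differences of the 3 shares. For CLK1, 1 of 3951 genes was within 5 percentage points. This was PCGF1, a Polycomb subunit gene, at 2.82 points with a retained-intron share of 47.8%. For CLK4, 1 of 3599 was this near, PLPP5, a lipid phosphatase gene, at 4.04 points with 35.6%. OGT had 7 such genes of 2669, the nearest being CAPN15 at 1.14 points, PPP1R16A at 1.36 and GARS1 at 2.57. CLK3 had 4 of 4152, led by NCBP3 at 1.73 points, ARHGEF40 at 2.51 and ZSCAN25 at 3.72. CLK2 and OGA have no retained-intron part. The class is listed by 38.5% of all genes with a coding transcript. Among genes with as many listed transcripts it is 57.3% for CLK2 and 47.6% for OGA. CLK2 had 42 near genes of 4584, the nearest being LMO4, EXOSC7 and TRAM1, and OGA had 42 of 2281, the nearest being KPNA6, FBXL18 and NBPF1. Near genes were thus fewest for CLK1 and CLK4, few for CLK3 and OGT, and most numerous for CLK2 and OGA. Genes that also lack a retained-intron part can differ from CLK2 and OGA only in the division between protein-coding and other transcripts. The measure itself therefore favours more near genes for these 2 members.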

How the data were processed

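RNA of 2 Flag-YTHDC1 IP and 2 input libraries was rRNA-depleted and sequenced. Per the labels and the paper's methods, the authors mapped reads with STAR (version 2.7.2b) to a GENCODE transcriptome of GRCh38, estimated reads per transcript with RSEM (version 1.2.31), dropped transcripts unless 50% or more of the samples had 5 or more reads, applied RUVSeq and ran DESeq2. The deposited signal is the mean normalized count per transcript over all libraries, made by the authors. The table has 0 columns of single libraries, so the planned count test of IP against input was not run. Its 4 other numeric columns hold the authors' own comparison (log2 fold change, its standard error, p-value and adjusted p-value) and were not used. Reads shared by isoforms are split by RSEM's statistical model, so isoform values rest partly on that estimate.

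Here, values were summed per gene identifier and by transcript class, with shares and percentiles among genes (python 3.11.15, numpy 2.4.6, pandas 2.3.3, matplotlib 3.10.9), and the steps were tested on simulated data. Gene coordinates are RefSeq's for GRCh38.p14. All 6 members matched a separate table of gene names. The members and lists were chosen with earlier results of these data known. Named genes were all members, and of each pathway list those with the highest and lowest retained-intron share and the highest total. SRSF1 was named as well, for a leading retained-intron transcript like that of CLK1. The nearest 3 genes by make-up were named where within 5 percentage points. Alternatives were minimum mean normalized counts of 10 and 100, other classes, omission of the leading transcript and other pools of genes.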

Additional observations from a re-analysis of the deposited data

How the results depend on the processing

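No paired analysis was possible because the values are means over all libraries and no result comes from a test. For the same reason the count models, the count filter, the omission of each replicate and the replicate block that had been planned were not run. With no spread between replicates known, a value was taken as moved when it changed by over 1.5 times. Of 40 values recomputed under the alternatives, 29 stayed within that limit and 11 did not. All 10 values recomputed with transcripts of at least 10 normalized counts stayed within it. That minimum removed only 5 of the 49 transcripts, all with low counts, so these values could barely change. The 8 recomputed percentiles of the retained-intron share also stayed within the limit. They were taken among genes with a similar number of listed transcripts (69.5 to 94.7) or a gene total within 2-fold (70.0 to 92.0). A percentile has an upper bound, so those of CLK1, CLK4 and OGT, at 94.4, 90.6 and 84.3, could not rise past the limit. Their staying within it therefore says little.

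With transcripts of at least 100 normalized counts, the retained-intron share of CLK1 became 100%, since CLK1-211 alone was left with a total of 104, and that of CLK3 became 0%. No CLK4 transcript reached this minimum, so it gave no value. Without the most abundant transcript, the share was 16.3% in CLK1, 63.5% in CLK4 and 62.9% in OGT, by construction. When all classes other than protein-coding were counted, CLK3 rose to 46.2%. With protein-coding transcripts alone, totals were 97.2 in CLK1, 297 in CLK2, 909 in CLK3 and 98.4 in CLK4. The depth of the libraries is unknown, so the precision that it gives these shares is unknown too.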
